A study of Mus musculus with 6 samples.

Results

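The 10 integrin genes described here are Itga1, Itga2, Itga4, Itgal, Itgam, Itgax, Itgae, Itgb1, Itgb2 and Itgb7, chosen by name from 21883 protein-coding genes because their products distinguish subsets of natural killer (NK) cells. The genotypes compared were Tcf7-/- (KO, strain B6.129 Tcf7Tm1Cle) and Tcf7+/+ (WT, strain B6). NK cells came from the spleen in both and spent 5 days in culture with IL-2, a growth factor for NK cells, at 500 ng/mL. The product of Tcf7 is the transcription factor Tcf1. ChIP was done in each genotype for Tcf1 and for H3K4me3 (trimethylated lysine 4 of histone H3, found at active promoters), and peak lists of these 4 libraries were used. The age and sex of the mice and any pooling of animals are not given in the sources used here. Strain background and genotype cannot be told apart, because the labels name a different strain for each. With 1 library in each group, differences between genotypes have no replicate check, and no test of them was possible.

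Integrins are adhesion receptors made of 1 alpha and 1 beta chain, and the pairing sets the ligand. CD49a (Itga1) and CD49b (Itga2) pair with CD29 (Itgb1) and bind collagen. CD11a, CD11b and CD11c (Itgal, Itgam and Itgax) pair with CD18 (Itgb2), and the CD11a pair, LFA-1, binds ICAMs at the contact between an NK cell and its target. CD49d (Itga4) pairs with CD29 or with the beta 7 chain (Itgb7) and guides homing to tissues, and CD103 (Itgae) pairs with the beta 7 chain and binds E-cadherin in epithelia. In mouse, CD49b is a general marker of conventional NK cells, CD49a marks tissue-resident NK cells and type 1 innate lymphoid cells (ILC1), and CD11b appears as NK cells mature.

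Promoter sequences were examined first, because Tcf1 binds the core CTTTGA and CpG-rich promoters are a common seat of H3K4me3. RefSeq promoter sequences (GRCm38.p6) were found for 7 members, and the 250 bases before the transcription start site (TSS) are shown 5′ to 3′ on the gene's strand. CTTTGA, searched on both strands (reverse complement TCAAAG), lay in 2 of the 7, those of Itga1 and Itgam, against 13.83% of 32851 promoters over the same 250 bases. The Itga1 promoter is shown for this match, in capitals, which starts at position -113 relative to the TSS (chr13:115101965-115102214, minus strand).
Itga1: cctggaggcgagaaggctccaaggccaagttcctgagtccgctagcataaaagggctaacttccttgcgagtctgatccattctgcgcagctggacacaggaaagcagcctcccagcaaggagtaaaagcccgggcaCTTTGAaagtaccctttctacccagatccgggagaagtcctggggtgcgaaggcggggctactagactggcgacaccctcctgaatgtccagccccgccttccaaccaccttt
A match is a run of letters and not a binding site. The promoters of Itgb1 (chr8:128685404-128685653, plus strand), Itgax (chr7:128129300-128129549, plus strand) and Itgb7 (chr15:102231936-102232185, minus strand) are shown for their contents of CpG, given in capitals. Those of Itgax and Itgb7 belong to the members with the highest and the lowest genotype ratio below, and that of Itgb1 was added after its values were seen.
Itgb1: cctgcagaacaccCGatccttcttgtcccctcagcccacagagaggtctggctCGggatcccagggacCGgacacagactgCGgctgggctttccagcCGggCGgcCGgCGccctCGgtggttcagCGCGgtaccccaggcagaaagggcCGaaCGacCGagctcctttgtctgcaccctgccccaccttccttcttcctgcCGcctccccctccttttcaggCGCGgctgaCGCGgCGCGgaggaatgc
Itgax: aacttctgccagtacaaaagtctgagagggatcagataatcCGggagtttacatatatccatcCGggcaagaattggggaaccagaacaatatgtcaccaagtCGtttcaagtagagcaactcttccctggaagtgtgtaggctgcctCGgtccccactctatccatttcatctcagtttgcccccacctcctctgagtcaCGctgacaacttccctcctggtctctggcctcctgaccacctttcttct
Itgb7: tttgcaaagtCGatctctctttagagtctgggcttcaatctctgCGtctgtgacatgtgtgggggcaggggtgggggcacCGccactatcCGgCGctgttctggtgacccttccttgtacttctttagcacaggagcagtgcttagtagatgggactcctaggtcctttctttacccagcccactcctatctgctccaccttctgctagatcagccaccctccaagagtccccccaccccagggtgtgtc
Itgb1 has 21 CpGs, at percentile 84.4 of all promoters, while Itgax and Itgb7 have 5 each, at percentile 47.0. Itga1 has 10 CpGs, Itga2 has 12, and Itga4 and Itgam have 6 each. The median over all promoters is 6.

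For H3K4me3, 11074 peaks were listed in KO and 13771 in WT, and the tags (reads) within them summed to 7507763 in KO and 6635272 in WT. The KO Tcf1 list held 5139 peaks and the WT Tcf1 list 866, but the median false discovery rate that the authors' peak caller gave was 96.88% in KO and 26.63% in WT, so the numbers of peaks are no measure of Tcf1 binding. The sums of tags cover called peaks only, and the sequencing depth is unknown here. At Tcf7 itself, 0 Tcf1 peaks were called in KO, against 1 peak of 123 tags in WT. The promoter carried 535 H3K4me3 tags over 2872 bp in KO and 525 over 3669 bp in WT. Its centred ratio (defined below) was -0.24 (95% counting interval -0.41 to -0.06), and per kb of peak it was 0.06. All 6 markers of NK cells examined (Ncr1, Klrb1c, Eomes, Tbx21, Prf1 and Klrk1) carried H3K4me3 in both genotypes. Their centred ratios ran from -0.46 for Klrk1 to 0.46 for Ncr1. Of 6 T cell markers with a known TSS, 0 were marked in KO and 2 in WT (99 tags in all), and of 6 myeloid markers 0 were marked in KO and 1 in WT (95 tags). Neither of 2 B cell markers with a known TSS was marked in either genotype, and 1 of 3 erythroid markers was marked in both (227 tags in KO and 264 in WT).

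H3K4me3 was measured on regions formed by merging overlapping peaks of both libraries, at the regions within 1 kb of a TSS. A gene is called marked in a library if that library has a peak in such a region. Of the 10 integrin genes, 8 were marked in KO and the same 8 in WT. Among the 17491 genes of the promoter table, 48.9% were marked in KO and 54.4% in WT. That table lacks Itgal, Itgb2 and Itgae, whose TSSs were known only through the peak lists, so the count and these shares cover unlike sets. Of the 7 members in the table, all but Itgam were marked in both genotypes. No peak was called at the TSS of Itgam or Itgae in either genotype, and 45.4% of the genes of that table were likewise marked in neither. A gene without a called peak can still hold some tags, which the lists do not give.

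Over the 10299 genes marked in both, the median log2 ratio of KO tags to WT tags was 0.26, so that most promoters had more tags in KO. Ratios below are log2 of KO tags over WT tags minus this median, called centred ratios. Their 95% intervals are exact binomial intervals and cover counting error only, since PCR copies were not identified. Where a peak is longer it gathers more tags, so tags per kb of called peak are given as well, centred on their own median of 0.32. Over all genes the centred ratios had an SD of 0.29.

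**Figure D1:**
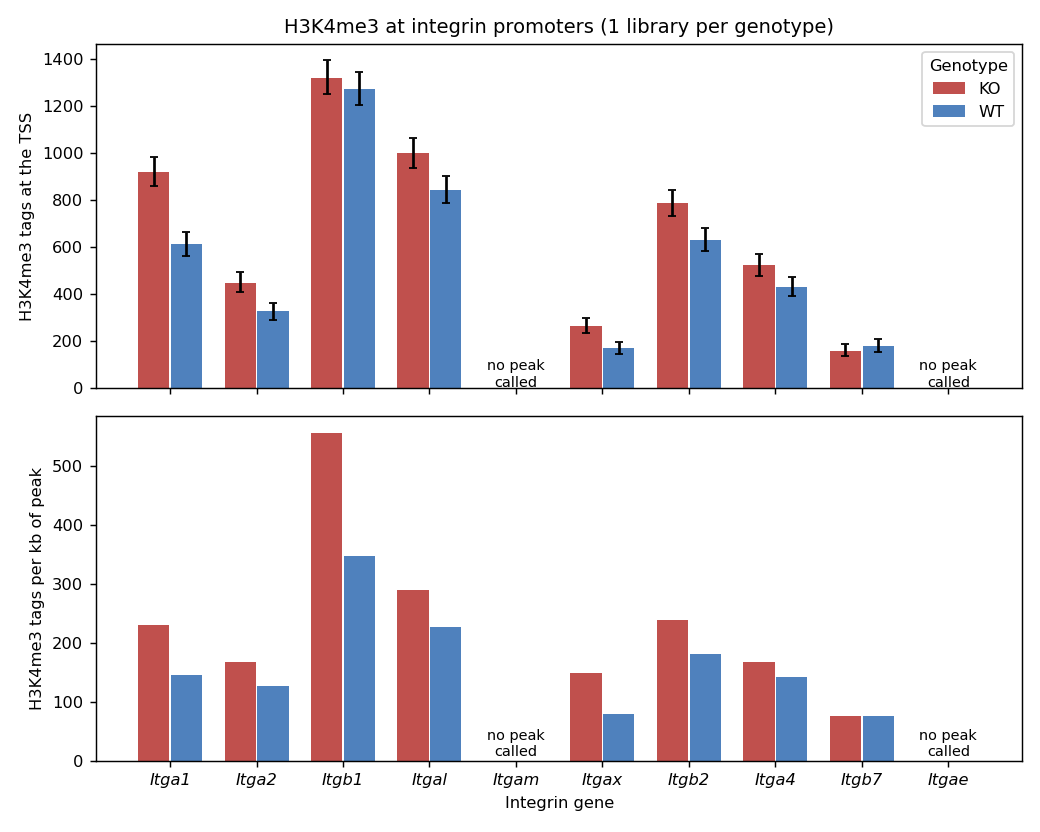
H3K4me3 at the TSS of each integrin gene as tags (top, with exact 95% Poisson intervals) and as tags per kb of called peak (bottom, linear axes), in KO (red, left) and WT (blue, right), 1 library each. Itgb1 was the tallest in both genotypes, with 1320 tags in KO and 1271 in WT, and no peak was called at Itgam and Itgae.

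The collagen-binding chains Itga1 and Itga2 lie next to each other on chromosome 13. The ratio of KO to WT was above that of the median gene at Itga1, while at Itga2 its counting interval reached 0. Itga1 (minus strand, 114958079 to 115101964) had 920 tags in KO and 612 in WT. Its centred ratio was 0.32 (95% counting interval 0.17 to 0.47), at percentile 94.0 of genes marked in both. The Itga1 peak covered 4003 bp in KO and 4195 bp in WT, so that per kb it held 230 tags in KO and 146 in WT, a centred ratio of 0.33. Of the 8 marked integrins it had the longest peak in either genotype, at percentile 92.1 of widths in KO and 90.9 in WT.

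Itga2 (minus strand, 114833081 to 114932100), whose product is the DX5 antigen used to sort mouse NK cells, had 449 tags in KO and 327 in WT. The centred ratio was 0.19, but its interval of -0.02 to 0.40 reached 0. Per kb the ratio came to 0.09, with 168 tags in KO and 126 in WT. The widths were close, at 2675 bp in KO and 2586 bp in WT.

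Cells carrying CD49a include ILC1, so other ILC1 markers were read beside Itga1. Tnfsf10, which encodes the death ligand TRAIL, had 784 tags in KO and 373 in WT (centred ratio 0.81, interval 0.63 to 0.99), and its ratio per kb was 0.47. By tags it was at least 1.5-fold higher in KO, as were 0.757% of all genes marked in both. Cxcr6 was marked in neither genotype, and Zfp683 had no TSS in the sources used here. Tnfsf10 was therefore the sole marked gene of this list other than Itga1. The part of such cells in the Itga1 values was not tested. In these bulk samples a larger share of marked cells and more mark per cell cannot be told apart.

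Itgb1, the common beta chain of these receptors (chromosome 8, plus strand, 128685654 to 128733579), had nearly the same count in both genotypes, 1320 tags in KO and 1271 in WT. Relative to the median gene this was a centred ratio of -0.21 (interval -0.32 to -0.10). The peak was much shorter in KO, 2371 bp against 3652 bp in WT. The KO peak ended 1574 bp after the TSS and the WT peak 2715 bp after it, while the upstream edges lay at -796 bp in KO and -936 bp in WT relative to the TSS. A width ratio this low stood at percentile 1.7 of genes marked in both. Per kb of its peak, KO held 557 tags per kb and WT 348, and the centred ratio per kb was positive, at 0.36. Relative to the median gene, Itgb1 was lower in KO by the centred ratio of tags and higher by that of tags per kb, while its uncentred counts were nearly equal. Its density was at percentile 97.4 of genes in KO and 83.6 in WT. That was far above the density of its alpha partners in this set, Itga1, Itga2 and Itga4.

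The CD18 family showed a spread from unmarked to strong. Itgal (chromosome 7, plus strand, 127296139 to 127335137), the alpha chain of LFA-1, had 998 tags in KO and 844 in WT, over 3450 bp in KO and 3726 bp in WT. The centred ratio was -0.02 (interval -0.16 to 0.11), so its count moved with the median gene. Itgb2 (chromosome 10, plus strand, 77530329 to 77565708), the shared beta chain, was similar, with 787 tags in KO and 630 in WT and a centred ratio of 0.06 (interval -0.10 to 0.21). Its peak covered 3283 bp in KO and 3484 bp in WT. Per kb, Itgal held 289 tags in KO and 227 in WT, and Itgb2 240 in KO and 181 in WT. The centred ratios per kb were 0.03 for Itgal and 0.09 for Itgb2, so both chains of LFA-1 stayed within 0.1 of the median gene by tags and by density.

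Itgax, the CD11c gene (chromosome 7, plus strand, 128129526 to 128150657), was weakly marked, with 265 tags in KO and 170 in WT. It had the highest centred ratio of the 8, 0.38 (interval 0.09 to 0.66), at percentile 96.1 of genes marked in both. The peak was shorter in KO, 1772 bp against 2158 bp in WT, and per kb it held 150 tags in KO and 78.8 in WT, a centred ratio of 0.60. CD11c is also a marker of dendritic cells. The 6 myeloid markers with a known TSS summed to 0 tags in KO and 95 in WT. Of these, Lyz2, Mpo, Elane, S100a8 and Siglech were unmarked in both. The part of other cells in the Itgax values was not tested. Its neighbour Itgam, the CD11b gene (plus strand, 128062640 to 128118491), ends 11.04 kb before Itgax and had no H3K4me3 peak at its TSS or anywhere in the gene in either genotype.

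Itga4 (chromosome 2, plus strand, 79255426 to 79333114), which serves in homing, had 523 tags in KO and 432 in WT over 3114 bp in KO and 3040 bp in WT. Its centred ratio of 0.01 (interval -0.18 to 0.20) was that of a median gene, and per kb it was -0.08. Its partner Itgb7 (chromosome 15, minus strand, 102215994 to 102233405) was the weakest marked member per kb, with 76.2 tags in KO and 76.3 in WT, near percentile 1.7 of genes in KO and 2.8 in WT. By tags it had 161 in KO and 182 in WT, the sole member with fewer tags in KO. The centred ratio was -0.44 (interval -0.76 to -0.13). The authors' peak caller gave the KO peak a false discovery rate of 10.6%, against a median of 0.03% over the KO list, and a score of 78.0, the lowest of the KO member peaks.

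A further peak upstream of Itgb7 was called in WT alone. It held 166 tags over 3041 bp and began 1387 bp before the TSS used here, 841 bp from the TSS peak, and so lay just outside the 1 kb window. The RefSeq gene reaches to position 102233405, inside this upstream peak. The next gene, Rarg, lies 1.53 kb beyond that position, so most of this peak lies outside Itgb7 and part of it lies in Rarg. Its tags cannot be assigned to Itgb7 alone. No KO peak was called there, and the lists do not give KO tags outside peaks, so KO was counted as 0 in this region. The interval below does not cover that choice. With the upstream peak counted in this way, Itgb7 stood at 161 tags in KO and 348 in WT, a centred ratio of -1.38 (interval -1.66 to -1.10). This value was reached with a window of 2.5 kb, with peaks within 1 kb merged, or with the RefSeq 5′ end as TSS, the last chosen after seeing the data. No other integrin in this set moved past 1.5-fold under those 3 settings.

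**Figure D2:**
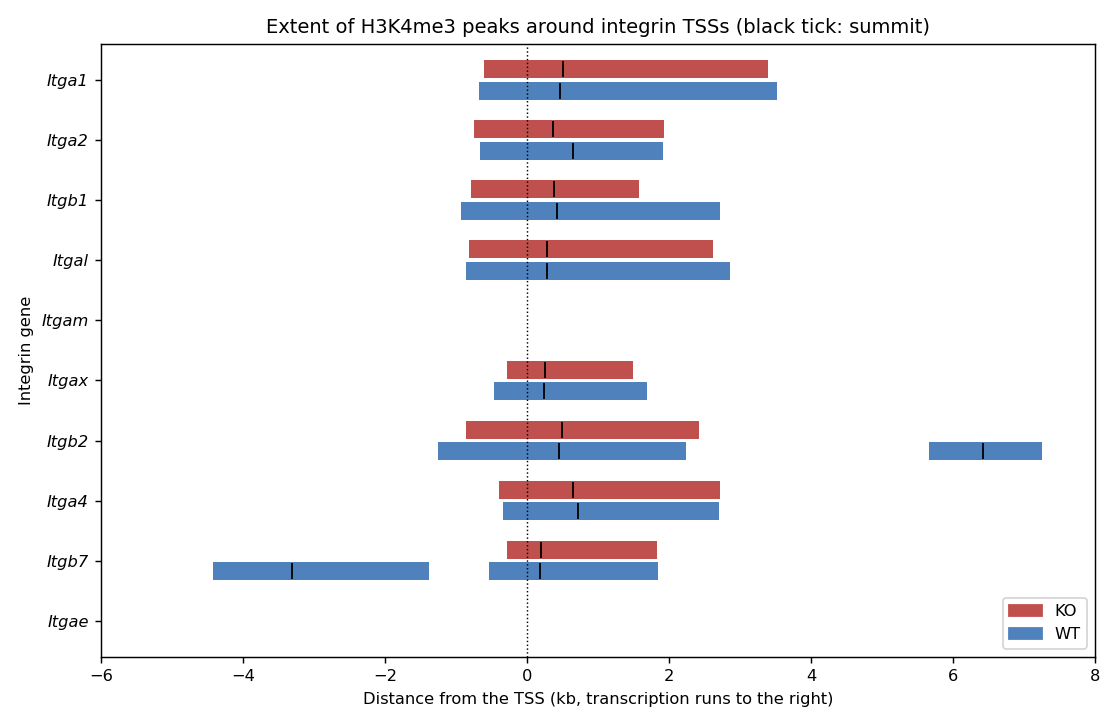
Extent of each H3K4me3 peak from 6 kb before to 8 kb after the TSS of each integrin gene, in kb, with KO (red) above WT (blue) and the summit as a black tick. The peak of Itgb1 ends 1574 bp after the TSS in KO and 2715 bp after it in WT, and WT alone has peaks upstream of Itgb7 and inside Itgb2.

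At the 8 marked integrins the shape of the mark was otherwise alike in both genotypes. All summits lay inside the gene, 192 to 636 bp after the TSS in KO and 185 to 711 bp after it in WT. The largest shift of a summit between genotypes was 282 bp, at Itga2. Between 66.4% and 87.1% of a KO peak and between 63.9% and 88.7% of a WT peak lay after the TSS. Of the 8 peaks, 6 were narrower in KO, against 64.9% of all genes marked in both. Apart from Itgb1, no edge of a member's peak moved by more than 384 bp.

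Set against all genes, the integrins were spread to both sides of the median gene. The quartiles of the centred ratio over all genes marked in both were -0.14 and 0.13. Itgal, Itgb2 and Itga4 lay between the quartiles, Itgax, Itga1 and Itga2 above them, and Itgb1 and Itgb7 below them. The integrins' median was 0.03, against 0 by construction over all genes. None was at least 1.5-fold higher in KO (0.757% of all genes were) and none at least 1.5-fold lower (4.66% were). The counting interval lay above 0 for Itga1 and Itgax (19.2% of genes) and below 0 for Itgb1 and Itgb7 (21.8% of genes), shares near the background. Per kb the median was 0.09, and Itgax alone passed 1.5-fold, upwards (0.719% of all genes), and none downwards (3.76%). The SD among the 8 was 0.27, close to that over all genes.

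**Figure D3:**
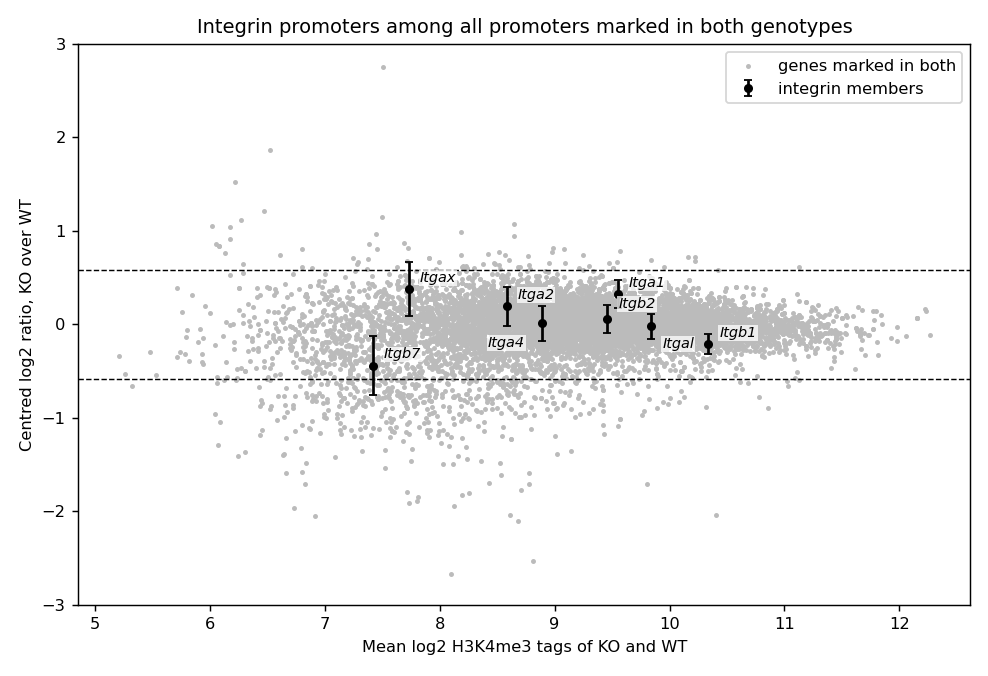
Centred log2 ratio of H3K4me3 tags, KO over WT, against the mean log2 tags of both libraries, for 10299 genes (grey) and 8 integrins (black, with 95% counting intervals), with dashed lines at 1.5-fold. All 8 integrins lie between the lines, from -0.44 for Itgb7 to 0.38 for Itgax.

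Peaks inside 2 of the genes belonged to other TSSs. The deposited lists assign a strong H3K4me3 peak to Itgae (chromosome 11, plus strand, 73090505 to 73147449), with 1287 tags in KO and 803 in WT. It begins 44897 bp after the Itgae TSS in KO and 45385 bp after it in WT, and it covers the TSS of Haspin, a kinase gene on the opposite strand that lies within Itgae (73135484 to 73138294). The centred ratio of 0.42 (interval 0.29 to 0.55), or 0.11 per kb, is therefore a value at Haspin, and Itgae itself has no called mark at its TSS. In the same way, a peak inside Itga1 with 664 tags in KO and 639 in WT covers the TSS of Pelo (115088355 to 115090158), at a centred ratio of -0.21 (interval -0.37 to -0.05). The Itga1 promoter and the Pelo promoter thus lay on opposite sides of the median gene.

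Regions over 1 kb from every TSS used here were also read, in the integrin genes and within 50 kb of them. Of 7 such WT regions, 5 had no KO peak, which is near the share of 57.8% over all such WT regions. One of the 5 is the region upstream of Itgb7, which overlaps the RefSeq 5′ end of that gene. The others were a region centred at -31.16 kb from the TSS of Itgb1 (67 tags), regions at -11.88 kb (64 tags) and -7.39 kb (63 tags) from that of Itgal, and a region at 6.45 kb within Itgb2 (67 tags). The pair called in both genotypes lay at -42.02 kb from Itgal, with 280 tags in KO and 268 in WT, and at 115.14 kb from the TSS of Itga4, with 102 tags in KO and 69 in WT.

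Tcf1 peaks were then sought in the integrin genes and within 50 kb of them. None of the 10 had one in KO and none in WT. Over all 21883 protein-coding genes, 20.6% had a called peak within this distance in the KO list, with its high false discovery rates, and 4.39% in the WT list, so a count of 0 of 10 is close to the background in WT. The nearest peak to a member in KO lay 55.2 kb from Itgb1 (11 tags, false discovery rate 79.2%), just outside the limit. In WT the nearest was 89.2 kb from Itga1 (23 tags, false discovery rate 27.6%, chromosome 13, 115191192 to 115191581). The median distance was 332 kb in KO and 1204 kb in WT. Distances shorten as a list grows, and the KO list held 5139 peaks against 866 in WT. Distances over all genes were not measured, so no difference between genotypes is read from these medians. The Itga1 promoter, which holds CTTTGA, had no Tcf1 peak in either genotype.

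**Figure D4:**
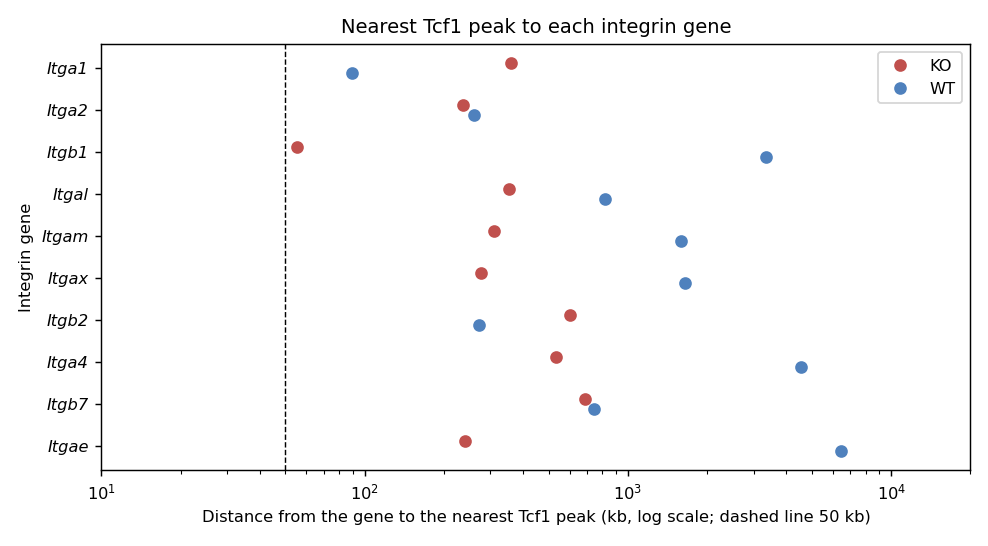
Distance in kb (log axis) from each integrin gene to the nearest Tcf1 peak in KO (red, above) and WT (blue, below), with the 50 kb limit dashed. No point lies within 50 kb, and the closest are 55.2 kb from Itgb1 in KO and 89.2 kb from Itga1 in WT. The KO list holds 5139 peaks and the WT list 866, so the distances of the genotypes are not comparable.

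Other genes of the integrin system were read from lists. Of 14 other integrin subunits with a known TSS, 5 were marked in KO and 7 in WT, against 48.9% of the genes of the promoter table in KO and 54.4% in WT. The 5 marked in both had a median centred ratio of -0.51. Of them, 2 were at least 1.5-fold lower in KO, against 4.66% of all genes marked in both. These were Itga3, a laminin receptor chain, with 226 tags in KO and 367 in WT (-0.96, interval -1.21 to -0.72), and Itgb5, a partner of the alpha V chain, with 297 tags in KO and 397 in WT (-0.68, interval -0.90 to -0.46). Itgb3 was at -0.51, Itga5 at -0.17 and Itgav at 0.06. Itga9 (71 tags) and Itgb4 (60 tags) were marked in WT alone, where the median over all such genes was 75 tags. The share of all genes marked in WT alone was not counted. With 5 genes the median of -0.51 describes those genes, and nothing particular to the list is read from it or from the genes marked in WT alone.

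Adaptors and activators, which link integrin tails to actin and switch the receptors on, were marked at 22 of 24 genes in each genotype, against the same 48.9% in KO and 54.4% in WT. Their median centred ratio was -0.02, and 0 of 22 passed 1.5-fold in either direction (0.757% of all genes were higher and 4.66% lower). Talin (Tln1), which activates integrins by binding the beta tail, had 2005 tags in KO and 1564 in WT (0.09, with an interval that reached 0), over a region it shares with Creb3. Kindlin-3 (Fermt3), its partner in blood cells, had 966 tags in KO and 819 in WT (-0.03). The extremes of the list were Ptk2b, the kinase Pyk2, at 0.26 and Vcl, which encodes vinculin, at -0.42. Of 9 ligands with a known TSS, 2 were marked in KO and 5 in WT, set against the same shares. Icam1, a ligand of LFA-1, had 969 tags in KO and 769 in WT (0.07), and Icam2 had 93 in KO and 81 in WT (-0.07). Marked in WT alone were Cdh1, which encodes E-cadherin, the ligand of CD103 (266 tags), Jam2 (84) and Icam4 (57). Over all genes marked in WT alone the median was 75 tags. The share of all genes marked in WT alone was not counted, so nothing particular to the ligands is read from these genes.

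**Figure D5:**
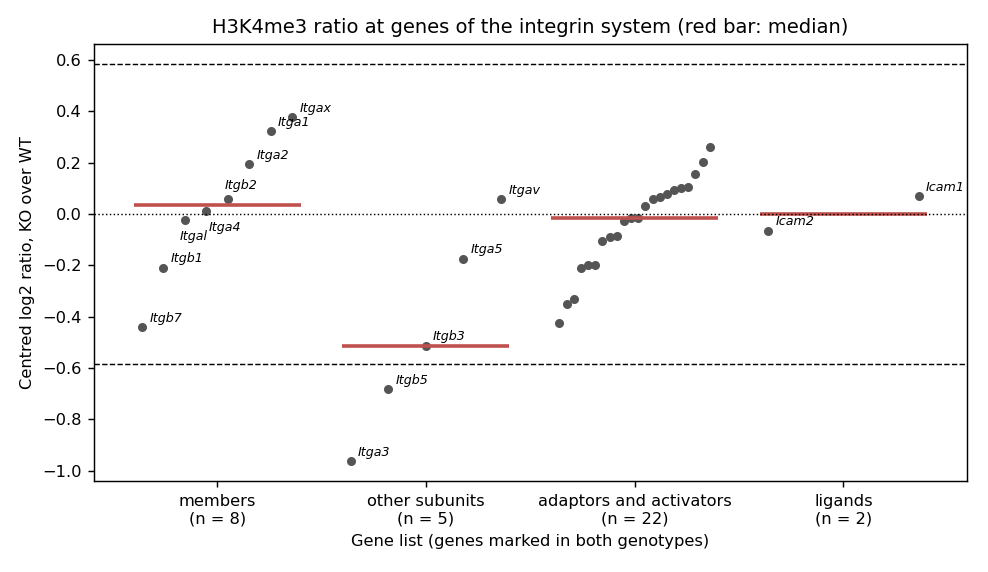
Centred log2 ratio of H3K4me3 tags, KO over WT, at genes of the integrin system marked in both genotypes, 1 point per gene, with the median of each list as a red bar and 1.5-fold as dashed lines. The integrins of NK cell subsets (median 0.03) and the adaptors (median -0.02) have medians near 0, and Itga3 and Itgb5 lie below the lower line.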

How the data were processed

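Tools named in the submitters' processing notes are MACS 1.4 and Bowtie2 2.1.0, and the same notes list mm10, GRCm38 and GRCh37 without saying what each was used for. Settings and controls of peak calling are not given in the sources used here. GRCm38 was assumed for all positions. The labels give 6 libraries, and the 2 inputs were not analysed here. Per the file headers, the deposited lists give a count of tags per peak, a score of 10 times the negative log10 of a p-value, a fold enrichment ratio and a false discovery rate in percent. Rows were reduced to distinct peaks, and starts, which count from 0, were converted to count from 1. TSSs came from a RefSeq promoter table (GRCm38.p6; 7 members) and from Ensembl features in the lists (3 members). Of 10 members, 9 had rows in the lists, matched by Entrez identifier. Peaks overlapping by at least 1 bp were merged, and tags and widths of called peaks were summed within 1 kb of the TSS. Tcf1 peaks were counted within 50 kb of the gene. Because 2577 genes have a TSS from the lists alone, shares of marked genes used the promoter table, and ratios used all 10299 genes marked in both. Counts of marked members and of the other gene lists took a TSS from either source, so they and these shares cover unlike sets. The rule for named genes took every member, and of the other lists genes marked in 1 library or beyond 1.5-fold with at least 100 tags. Tln1, Fermt3, Ptk2b, Vcl, Itgb3, Itga5, Itgav, Icam1 and Icam2 fall outside it and were picked from their values. The members and lists were chosen with earlier results of these data known. Code was tested on simulated data. Work was done in Python 3.11.15 with pandas 2.3.3, numpy 2.4.6, scipy 1.17.1 and, for figures, matplotlib 3.10.9.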

Additional observations from a re-analysis of the deposited data

How the results depend on the processing

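No test between genotypes and no paired analysis was possible because each group held 1 library. The count of members marked was 7 in KO and 8 in WT with scores of at least 100, where the Itgb7 peak of KO was lost, and 8 in both under the other 4 alternatives. The members' median centred ratio ranged from 0.03 to 0.12 over 9 alternatives. The count of members at least 1.5-fold higher in KO was 1 (Itgax) per kb of peak, and the count at least 1.5-fold lower was 1 (Itgb7) with a window of 2.5 kb, with peaks within 1 kb merged, and with the RefSeq 5′ end as TSS. Over all genes marked in both, 0.719% were higher per kb, and 4.75%, 4.76% and 4.72% were lower under the latter settings in turn. Itgb7 ranged from -1.38, with no KO tags counted in the upstream region, to -0.32 over its alternatives. Itgb1 ranged from -0.22 to 0.36, its value per kb. Itgal and Itga4 changed sign under 2 and 1 alternatives, within 0.1 of 0. Within 100 kb, 1 member had a Tcf1 peak in KO (Itgb1, false discovery rate 79.2%) and 1 in WT (Itga1, 27.6%). The share of all genes at that distance was not counted. Under the other 5 alternatives 0 members had one. The median of the other subunits ranged from -0.52 to -0.42, that of the adaptors from -0.02 to 0.07 and that of the ligands from -0.13 to 0.09. Depth is unknown, so promoters without a called peak cannot be called unmarked below the caller's limit.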

Other observations

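Neighbouring promoters give the local setting of 2 members. At Itgb7, the nearest gene upstream is Rarg, which encodes a retinoic acid receptor and lies 1.53 kb away. Rarg had 714 tags in KO and 995 in WT, a centred ratio of -0.74, but -0.14 per kb of peak. Its main peak covered 3011 bp in KO and 5650 bp in WT. Zfp740, on the other side of Itgb7, had 1029 tags in KO and 855 in WT, at a centred ratio of 0.00, over a region it shares with Csad. On chromosome 13, Mocs2, 3.66 kb beyond Itga2, had 348 tags in KO and 251 in WT (0.21), close to Itga2 (0.19) and Itga1 (0.32), while Pelo, within Itga1, was at -0.21. Rarg, Zfp740 and Mocs2 were named after their values were seen.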
